A study of Homo sapiens with 12 samples.

Results

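The genes described here encode the proteins that mark replication origins and prepare them for use: the 6 subunits of the origin recognition complex (ORC1 to ORC6), the helicase loaders CDC6 and CDT1, the CDT1 inhibitor geminin (GMNN), and DBF4, which activates the kinase that fires licensed origins. They were taken by name, each through its brightest probe set with a single gene symbol. All 10 were measured among 18417 genes, and each had exactly 1 such probe set, so no choice between probe sets was needed. From textbook knowledge they were divided into 5 genes regulated by E2F (ORC1, CDC6, CDT1, GMNN and DBF4) and 4 constitutive subunits (ORC2, ORC3, ORC4 and ORC5). ORC6 was put in neither class, because sources differ on its regulation. The classes were set with earlier results of these data known, so a separation between them is a description and not independent support.

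As background, the origin recognition complex binds origin DNA, and with CDC6 and CDT1 it loads the MCM helicase onto chromatin in G1, which licenses the origin. Geminin accumulates from S phase on and blocks CDT1, which keeps an origin from being licensed again in the same cycle. E2F factors switch on genes for S phase as cells leave G1, whereas the constitutive subunits are made throughout the cycle.

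The study hybridised 12 arrays (Affymetrix Human Gene 1.0 ST) with RNA from the established melanoma line SK-mel147, grown in DMEM with 10% FBS and infected with lentiviruses that express short hairpin RNAs. The cells of 4 arrays carried hairpins against H2AZ2 (2 of sh_37 and 2 of sh_38), 4 carried hairpins against H2AZ1 (2 of sh_83 and 2 of sh_84), and 4 were controls (2 scrambled and 2 luciferase). H2AZ1 and H2AZ2 encode the isoforms of the histone variant H2A.Z, and the stated interest of the study is melanoma growth and drug response. Sample titles speak of siRNA where the protocol describes lentiviral hairpins. One sh_84 array, replicate 2, has another hairpin in its RNAi field than in its title, and was grouped by the title. The labels do not state whether replicates were separate cultures, so the p-values reflect array-to-array spread that may be technical only.

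The targeted genes were checked first. Relative to the controls, sh_37 left 46.1% of H2AZ2 transcript and sh_38 left 65.4%. H2AZ1 transcript stood at 19.3% with sh_83 but at 92.0% in the arrays labelled sh_84 (12.10 and 12.15, against 12.12 to 12.38 in the controls), so a result averaged over both H2AZ1 hairpins rests in part on arrays in which the target was little reduced. In the H2AZ2 arrays H2AZ1 transcript stood at 88.3% (11.97 to 12.11, all below the controls), with a log2 change of -0.18 (SE 0.43, limma adjusted p = 0.848). That SE also draws on the H2AZ1 arrays, where the SD of H2AZ1 was 1.303, against 0.066 in H2AZ2 arrays and 0.12 in controls. With each hairpin fitted as its own group the SE was 0.094. The change was then -0.214 with sh_37 (limma adjusted p = 0.19) and -0.145 with sh_38 (limma adjusted p = 0.396), and neither passed. Of the melanoma markers, SOX10 (10.23 to 10.80 over the 12 arrays), AXL (12.10 to 12.58) and NGFR (11.13 to 11.54) were bright. EGFR (8.93 to 9.61), SOX9 (8.99 to 9.39) and MITF (8.14 to 8.4) were less bright. S100B and the pigment genes MLANA, PMEL, TYR and TYRP1 lay at or below 5.86. The 6 fibroblast markers averaged 6.85 to 7.16 in the H2AZ2 arrays, against 6.57 to 6.79 in the controls, with LUM at 7.87 to 10.19 and DCN, which was near the floor of the array, at 3.26 to 3.76. None of the 6 passed the test in that comparison. With sh_37 alone 2 rose, against 1053 of all 18417 genes, and with sh_38 alone 1 rose, against 235 of all genes. The part of these markers in the results below was not tested. The means of the keratinocyte, endothelial and leukocyte lists overlapped between the H2AZ2 and control arrays. The leukocyte list held CD68, which was bright at 10.81 to 11.82, while PTPRC, CD3E and LYZ lay at or below 6.23. With sh_37 alone 2 of 4 leukocyte markers, 2 of 4 markers of dedifferentiated melanoma and 1 of 7 melanocyte markers fell, against 7.19% of all genes. Their part was not tested either.

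The promoter windows of the 10 genes show where the E2F label has a counterpart in sequence. They are RefSeq windows on GRCh38.p14, each 300 bases long, with 250 bases before the annotated start and 50 after. GMNN and ORC4 have 2 annotated starts, which gives 12 windows. Each was searched on both strands for 4 E2F core words. The words were TTCCCGC together with its variants TTGGCGC and also TTGCCGC as well as TTCGCGC. At least 1 of them lies in 4 of the 6 windows of E2F-regulated genes (ORC1, CDC6, CDT1 and the second start of GMNN), in 1 of the 5 windows of constitutive genes (ORC3), and not in the window of ORC6. Among 19575 promoters of measured protein-coding genes 16.4% hold such a word. The sequences below run from 120 bases before to 30 bases after the start, 5′ to 3′ on the gene's strand, with E2F core words in capitals. They are the 4 E2F-regulated windows with a match, the constitutive ORC3 with a match, and DBF4 and ORC6 without one.
ORC1: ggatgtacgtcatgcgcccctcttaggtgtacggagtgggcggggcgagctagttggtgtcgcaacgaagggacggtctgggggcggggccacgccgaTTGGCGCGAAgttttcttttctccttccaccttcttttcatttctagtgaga
CDC6: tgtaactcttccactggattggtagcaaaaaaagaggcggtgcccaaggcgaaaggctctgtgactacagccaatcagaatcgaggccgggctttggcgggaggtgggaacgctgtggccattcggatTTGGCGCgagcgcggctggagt
CDT1: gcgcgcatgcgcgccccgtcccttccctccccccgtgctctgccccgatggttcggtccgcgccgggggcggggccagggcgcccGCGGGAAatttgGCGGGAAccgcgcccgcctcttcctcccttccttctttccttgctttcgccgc
GMNN, second start: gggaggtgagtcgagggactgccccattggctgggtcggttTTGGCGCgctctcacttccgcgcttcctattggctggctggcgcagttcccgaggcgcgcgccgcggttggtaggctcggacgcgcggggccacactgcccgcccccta
DBF4: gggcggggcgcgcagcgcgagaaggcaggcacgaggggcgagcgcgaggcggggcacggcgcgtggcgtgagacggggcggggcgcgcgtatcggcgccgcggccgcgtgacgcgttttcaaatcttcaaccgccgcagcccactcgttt
ORC3: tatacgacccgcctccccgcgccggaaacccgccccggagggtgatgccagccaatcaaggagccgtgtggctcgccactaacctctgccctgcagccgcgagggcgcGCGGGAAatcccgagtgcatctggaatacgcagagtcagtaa
ORC6: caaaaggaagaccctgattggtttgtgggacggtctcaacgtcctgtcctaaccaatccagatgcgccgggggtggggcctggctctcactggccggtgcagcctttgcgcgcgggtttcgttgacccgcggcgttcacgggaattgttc

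The stretches shown lie at chr1:52404394-52404543 on the minus strand for ORC1 and, all on the plus strand, at chr17:40287759-40287908 for CDC6, chr16:88803669-88803818 for CDT1, chr6:24775293-24775442 for GMNN, chr7:87876373-87876522 for DBF4, chr6:87590015-87590164 for ORC3 and chr16:46689539-46689688 for ORC6. Except for ORC1 and GMNN they straddle the 5′ end of the annotated gene. The ORC1 start lies inside its annotated span (chr1:52372829-52409503), as does the second start of GMNN (chr6:24774937-24786099). With the start counted as +1, ORC1 holds TTGGCGC at -22 to -16 and, overlapping it, GCGCGAA at -19 to -13. CDT1 carries GCGGGAA at -35 to -29 and again at -23 to -17, the only window of the 12 with separate matches. The single matches are TTGGCGC at 9 to 15 in CDC6 and at -79 to -73 in GMNN, and GCGGGAA at -12 to -6 in ORC3. DBF4 lacks these words but holds TTCAAA, a match to the CHR element of cell cycle genes (TTTGAA or TTCGAA, both strands), at -3 to 3, and it is the only window of the 12 that does, against 13.6% of all promoters. A CCAAT box (either strand) occurs in 3 of 6 E2F-regulated windows, 2 of 5 constitutive windows and the ORC6 window, against 34.6% of all promoters. A match is a description of letters, and a window without one says only that these letters are not in it.

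**Figure D1:**
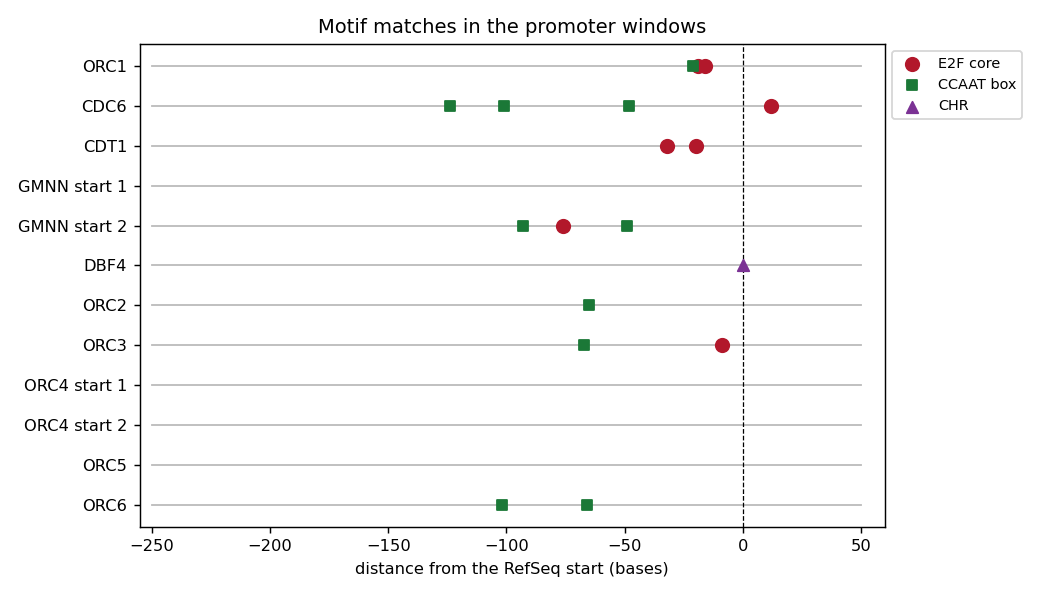
Positions of E2F core, CCAAT box and CHR matches (symbols at the centre of each match) along the 300-base RefSeq windows of the 10 genes, against distance from the annotated start in bases. E2F core matches (circles) lie in 4 of 6 windows of E2F-regulated genes and in the ORC3 window, all within 80 bases of the start.

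With hairpins against H2AZ2, 4 of the 5 E2F-regulated genes fell, with DBF4 the exception, and the constitutive subunits did not pass the test. Expression was lower in H2AZ2 arrays than in controls for ORC1, CDC6, CDT1, GMNN and ORC6, at 58.4% to 69.8% of the control level. Thus 5 of 10 genes fell (adjusted p below 0.05 over all 18417 genes), against 2.44% of all genes, and none rose. In these 5 genes every H2AZ2 array lay below every control array, a pattern seen in 7.46% of all genes. By class, 4 of 5 E2F-regulated genes fell (median log2 change -0.63), 0 of 4 constitutive genes fell (median -0.22), and the median over all genes was 0.03. Lower transcript per cell and fewer cells in the phase that makes the transcript cannot be told apart in bulk RNA.

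ORC1, the subunit whose protein level cycles and which completes the complex at origins, gave 8.29 and 8.54 with sh_37 and 8.53 and 8.17 with sh_38, against 9.28 and 9.04 with scrambled and 9.11 and 9.20 with luciferase hairpins (log2 expression, as for all array values). The highest H2AZ2 array was thus well below the lowest control array. Its mean was 8.38 ± 0.19 in H2AZ2 arrays and 9.16 ± 0.11 in controls (SD, n = 4 each), a log2 change of -0.78 (SE 0.12, limma adjusted p = 0.00565).

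CDC6, the ATPase that joins the complex on DNA to start helicase loading, gave 9.21 and 9.49 with sh_37 and 9.63 and 9.31 with sh_38, against 10.34 and 10.11 with scrambled and 9.95 and 10.35 with luciferase hairpins. Here too the groups did not overlap, although the controls themselves ranged from 9.95 to 10.35. Its log2 change was -0.78, as for ORC1, but with a larger SE of 0.19 (limma adjusted p = 0.0433). That SE also draws on the H2AZ1 arrays, which share the fit. The SD of CDC6 was 0.454 there, against 0.187 in H2AZ2 arrays and 0.194 in controls. With each hairpin fitted as its own group, the SE against the controls was 0.149.

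CDT1, which brings the MCM helicase to the complex, gave 8.33 and 8.04 with sh_37 and 8.29 and 8.47 with sh_38, against 8.86 and 8.84 with scrambled and 8.65 and 8.86 with luciferase hairpins. All H2AZ2 arrays were below the lowest control, and the log2 change was -0.52 (SE 0.10, limma adjusted p = 0.0152). GMNN, its inhibitor, gave 9.13 and 9.17 with sh_37 and 9.32 and 9.10 with sh_38, against 9.80 and 9.82 with scrambled and 9.70 and 9.94 with luciferase hairpins. This was the most even of the changes, with SDs of 0.10 in each group and a log2 change of -0.63 (SE 0.10, limma adjusted p = 0.00546). The licensing factor and its inhibitor were therefore both lower in the same arrays.

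DBF4, the regulatory subunit of the CDC7 kinase, was the E2F-regulated gene that did not pass. It gave 6.33 and 6.07 with sh_37 and 6.53 and 6.55 with sh_38, against 6.85 and 6.51 with scrambled and 6.43 and 6.91 with luciferase hairpins. The sh_38 arrays lay within the control range, and the log2 change was -0.30 (95% interval -0.60 to -0.01, limma adjusted p = 0.276). DBF4 was also the dimmest of the 10, with only 29.9% of genes dimmer on average, whereas the others exceeded at least 64.3% of genes. How far its probe set stands above background is unknown.

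The constitutive subunits of the complex were less separated. ORC3 was nearly level, at 9.92 ± 0.09 in H2AZ2 arrays and 9.97 ± 0.15 in controls (SD, n = 4 each), a log2 change of -0.05 (95% interval -0.25 to 0.16, limma adjusted p = 0.823). ORC2 (-0.20, 95% interval -0.44 to 0.04), ORC4 (-0.24, -0.52 to 0.03) and ORC5 (-0.25, -0.54 to 0.04) had negative values whose intervals include 0, with limma adjusted p between 0.363 and 0.397. In all 4 the H2AZ2 and control arrays overlapped. Their intervals leave room for falls of that size, so the data do not show them to be unchanged.

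ORC6, the smallest subunit and the least tightly bound to the complex, had values in the range of the E2F-regulated genes. It gave 8.04 and 8.04 with sh_37 and 8.50 and 8.20 with sh_38, against 8.75 and 8.83 with scrambled and 8.75 and 8.94 with luciferase hairpins. The groups did not overlap, and the log2 change was -0.62 (SE 0.11, limma adjusted p = 0.0105). Within the complex, then, ORC1 and ORC6 fell with H2AZ2 hairpins, while ORC2, ORC3, ORC4 and ORC5 did not pass the test. Whether the 2 sets of subunits differ in their change was not tested.

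The number called depends on the controls. Leaving out scrambled replicate 1 left only GMNN called, and 48 of all 18417 genes were then called lower, against 450 in the main fit. With the scrambled or the luciferase hairpin left out altogether 0 of the 10 were called. Among all genes 38 were called lower without scrambled and 7 without luciferase, so the loss was not particular to these 10. The log2 changes stayed between -0.86 and -0.42 for the 5 genes in every alternative. CDC6 was the least secure and lost its call in 12 of 25 alternatives.

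**Figure D2:**
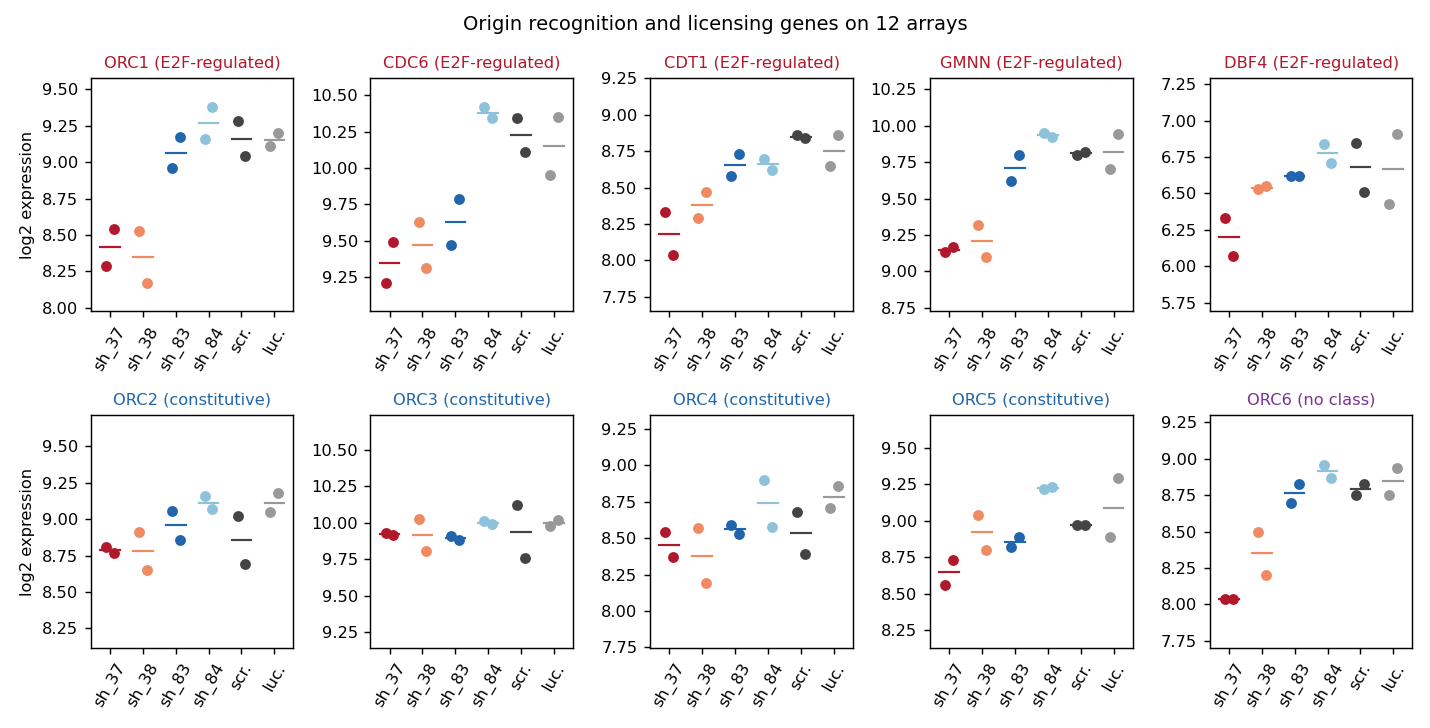
Log2 expression of each of the 10 genes on the 12 arrays, by hairpin (sh_37 and sh_38 against H2AZ2, sh_83 and sh_84 against H2AZ1, scr. and luc. as controls; points are arrays, lines the hairpin means, and all panels span the same log2 range). In ORC1, CDC6, CDT1, GMNN and ORC6 the 4 H2AZ2 arrays lie below the 4 controls, and in ORC3 all hairpins lie close together.

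Taken one at a time, each H2AZ2 hairpin gave falls in the same 5 genes. When each hairpin was fitted as its own group, 6 of 10 genes fell with sh_37, against 7.19% of all genes, and 5 of 10 fell with sh_38, against 3.33% of all genes. ORC1, CDC6, CDT1, GMNN and ORC6 fell with each hairpin, and DBF4 fell with sh_37 only by this count. With sh_37 these genes stood at 59.7%, 56.0%, 65.3%, 63.1% and 58.4% of the control level, in that order, and DBF4 at 72.1% (limma adjusted p = 0.0471). With sh_38 they stood at 57.1%, 60.9%, 74.5%, 65.8% and 72.4%, and DBF4 at 91.0% (limma adjusted p = 0.576). DBF4 lost its call with sh_37 in 15 of 20 alternatives, and CDT1 lost its call with sh_38 in 12 of 20. No constitutive subunit passed with either hairpin, though both sh_37 arrays of ORC5 (8.56 and 8.73) lay below all controls (8.89 to 9.29), with a log2 change of -0.39 (SE 0.12, limma adjusted p = 0.0502). This constitutive subunit became called in 7 of 20 alternatives, the replicate block among them. These single-hairpin tests rest on 2 arrays and leave out the spread between hairpins of one target. The sh_37 count was 3 without sh_37 replicate 1, where 531 of all genes were called lower, against 1324 in the main fit. The sh_38 count was 0 without sh_38 replicate 2, 2 without luciferase replicate 2 and 3 without scrambled replicate 1. Of all genes 92, 326 and 397 were called lower in these settings, in that order, against 613 in the main fit.

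The hairpins themselves were then compared. H2AZ2 transcript was lower with sh_37 than with sh_38 (log2 difference -0.50, limma adjusted p = 0.00763). Of the 10 genes 0 differed between sh_37 and sh_38 in either direction, against 6.27% of all genes, and 1 did at an unadjusted p below 0.05, against 17.7% of all genes. That gene was ORC6, at 8.04 and 8.04 with sh_37 and 8.50 and 8.20 with sh_38 (log2 difference -0.31, SE 0.12, limma adjusted p = 0.173). DBF4 (-0.34, limma adjusted p = 0.310) and ORC5 (-0.28, limma adjusted p = 0.318) were next. ORC1 was at 0.06 (95% interval -0.27 to 0.40, limma adjusted p = 0.884). CDC6, which had the same log2 change as ORC1 against the controls, was at -0.12 (95% interval -0.50 to 0.26, limma adjusted p = 0.793). Negative values were seen in 4 of 5 E2F-regulated genes and in 6 of all 10, against 10688 of all 18417 genes. Whether the falls follow the reduction of H2AZ2 was not tested.

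The control hairpins were also compared with each other. Of the 10 genes 0 differed between scrambled and luciferase arrays by the adjusted limma test, against 0% of all genes. At an unadjusted p below 0.05 the count was also 0 of 10, against 7.51% of all genes. ORC2 was at 9.02 and 8.69 in scrambled and 9.05 and 9.18 in luciferase arrays (log2 difference -0.26, limma adjusted p = 0.672). ORC4 was at 8.68 and 8.39 in scrambled and 8.71 and 8.86 in luciferase arrays (log2 difference -0.25, limma adjusted p = 0.693). In both genes scrambled replicate 2 was the lowest control.

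With hairpins against H2AZ1 no member of the set changed by the test. The targeted gene H2AZ1 did not pass in this pooled comparison either (log2 change -1.25, SE 0.43), so the test could not call even its own target. Over both hairpins 0 of 10 genes passed, against 0 (0%) of all genes. At an unadjusted p below 0.05 it was 0 of 10, against 636 (3.45%) of all genes. ORC1 averaged 9.17 ± 0.17 in H2AZ1 arrays and 9.16 ± 0.11 in controls (SD, n = 4 each), a log2 change of 0.01 (95% interval -0.25 to 0.27). GMNN was also at 0.01 (-0.20 to 0.21), ORC6 at 0.02 (-0.21 to 0.26), CDT1 at -0.14 (-0.36 to 0.07) and CDC6 at -0.18 (-0.59 to 0.23). These values share their 4 control arrays with the H2AZ2 comparison.

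The 2 H2AZ1 hairpins did not give like values. With sh_83, which reduced its target, 0 of 10 genes passed (0.641% of all genes did, in either direction), yet all 10 had negative values, with a median of -0.10. The largest was CDC6, at 9.47 and 9.79 with sh_83, against 9.95 to 10.35 in the controls. Both sh_83 arrays were below all controls for CDC6 and ORC5, 2 of 10 genes, against 10.9% of all genes. The log2 change of CDC6 was -0.56 (SE 0.15, limma adjusted p = 0.161). In the arrays labelled sh_84, where H2AZ1 was near the control level, 0 of 10 genes passed (0.353% of all genes did, in either direction) and 9 of 10 had positive values, with a median of 0.11. CDC6 gave 10.42 and 10.34 there. CDC6 in H2AZ1 arrays therefore ranged from 9.47 to 10.42, wider than in the H2AZ2 arrays (9.21 to 9.63) or the controls (9.95 to 10.35).

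**Figure D3:**
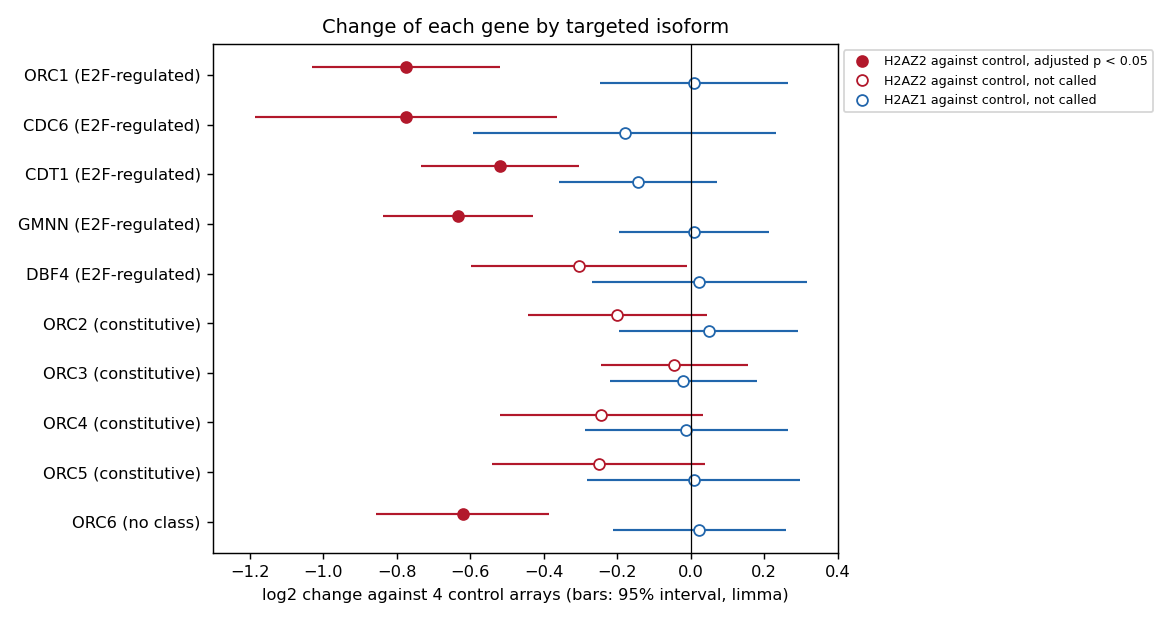
Log2 change of each gene against the 4 control arrays, with 95% intervals from limma, for H2AZ2 hairpins (red) and H2AZ1 hairpins (blue, 4 arrays each; filled points have an adjusted p below 0.05). The H2AZ2 values of ORC1, CDC6, CDT1, GMNN and ORC6 run from -0.78 to -0.52, while the H2AZ1 values of all 10 genes lie between -0.18 and 0.05.

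The difference between the isoforms was tested directly. Of the 10 genes 3 were lower in H2AZ2 than in H2AZ1 arrays, against 2.28% of all genes, and none was higher. They were ORC1 (-0.785, SE 0.12, limma adjusted p = 0.0042), GMNN (-0.64, SE 0.10, limma adjusted p = 0.00407) and ORC6 (-0.645, SE 0.11, limma adjusted p = 0.00717). In 5 of 10 genes, these and CDT1 and DBF4, every H2AZ2 array lay below every H2AZ1 array, against 6.84% of all genes. CDT1 just missed the threshold (-0.38, SE 0.10, limma adjusted p = 0.0504). For CDC6 the value was -0.60 (SE 0.19, limma adjusted p = 0.102), and its groups overlapped through sh_83. The constitutive subunits ranged from -0.26 for ORC5 to -0.03 for ORC3, and none passed. Without the arrays labelled sh_84, in which H2AZ1 was little reduced, 0 of 10 genes were called. Of all 18417 genes 31 were then called lower, against 419 in the main fit, so the loss was not particular to this set. The log2 differences of ORC1, GMNN and ORC6 were -0.68, -0.53 and -0.57 without these arrays.

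The class means describe both classes array by array, with the classes set when earlier results were known. Relative to the control mean, the E2F-regulated genes averaged -0.67 and -0.66 with sh_37 and -0.47 and -0.61 with sh_38, against -0.16 to 0.12 over the control arrays. The constitutive subunits averaged -0.20 and -0.21 with sh_37 and -0.02 and -0.30 with sh_38, against -0.21 to 0.18 over the controls. So the E2F-regulated mean of every H2AZ2 array lay below the controls, whereas the constitutive mean did so in 2 of the 4. The gap between the class means (E2F-regulated minus constitutive) was -0.47, -0.45, -0.45 and -0.31 in the H2AZ2 arrays, against -0.15 to 0.14 in the controls. In H2AZ1 arrays it was -0.21 and 0.02 with sh_83 and -0.07 and 0.01 in those labelled sh_84. The sh_83 replicate 1 array thus lay between the H2AZ2 arrays and the controls.

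**Figure D4:**
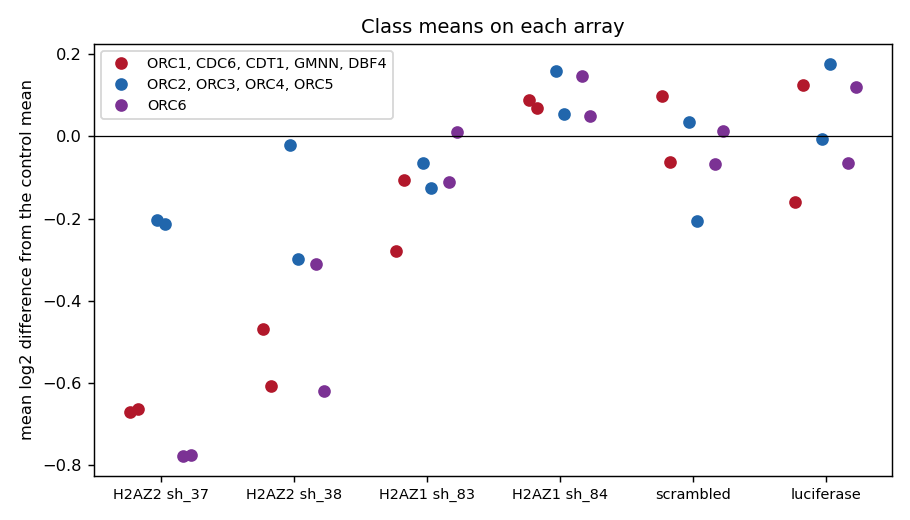
Mean log2 difference from the control mean for the 5 E2F-regulated genes (red), the 4 constitutive subunits (blue) and ORC6 (purple) on each array, by hairpin. In the H2AZ2 arrays the red points lie from -0.67 to -0.47 and the blue points from -0.30 to -0.02, while in the control arrays the colours mix around 0.

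Correlations over the 12 arrays describe the same grouping only in part, and all pairs share the arrays and the large H2AZ2 shift. Pearson's r ran from 0.640 to 0.961 over the 10 pairs of E2F-regulated genes (median 0.778), with ORC1 and GMNN the closest. It ran from 0.425 to 0.921 over the 6 pairs of constitutive subunits (median 0.695) and from 0.107 to 0.860 over the 20 pairs across the classes (median 0.644). ORC6 correlated with the E2F-regulated genes at a median of 0.845 and with the constitutive subunits at a median of 0.661. ORC5 correlated with the E2F-regulated genes at 0.560 (CDT1) to 0.860 (CDC6). With its own class it correlated at 0.425 (ORC3) to 0.667 (ORC2). The ranges overlap, so the classes are not cleanly divided by correlation. Among 13802 other genes above the dimmest 25%, those most like ORC1 over the 12 arrays were MCM10 (r = 0.981), which acts with the helicase when origins fire, DCLRE1B (0.970), WDR76 (0.967), SND1 (0.967) and GMPS (0.965). Those most like the mean of the constitutive subunits were MED4 (0.989), TGDS (0.979), DLEU1 (0.967), PLGRKT (0.964) and TAF1D (0.962).

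Other genes of the pathway also fell in the H2AZ2 arrays, where 2.44% of all genes did. All 7 genes of the MCM list, the helicase MCM2 to MCM7 and its binding protein MCMBP, fell (median log2 change -0.49), with MCM6 at -0.73 (limma adjusted p = 0.00651) and MCM4 at -0.63 (limma adjusted p = 0.00546). Of 14 origin firing genes 9 fell (median -0.43), among them MCM10 (-0.69, limma adjusted p = 0.00555) and GINS1 of the helicase-activating GINS complex (-0.64, limma adjusted p = 0.0154). Of 15 genes that control licensing 4 fell (median -0.24), among them DTL (-0.67, limma adjusted p = 0.0179), a substrate receptor of the ligase that destroys CDT1, and the deubiquitinase USP37 (-0.66, limma adjusted p = 0.0363). None of these genes rose.

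Of 9 genes for chromatin at origins 2 fell (median -0.20), the replication timing factor RIF1 (-0.48, limma adjusted p = 0.0349) and JADE1 of a histone acetyltransferase complex (-0.31, limma adjusted p = 0.0458). Of 13 E2F and RB family genes 2 fell (median -0.32), the E2F8 gene of a repressive E2F (-0.78, limma adjusted p = 0.0415) and RBL1, which encodes the pocket protein p107 (-0.54, limma adjusted p = 0.0387). Of 15 mitosis genes 6 fell (median -0.42), among them CDK1, the mitotic kinase (-0.72, limma adjusted p = 0.00722), and CENPE, a kinetochore motor (-0.68, limma adjusted p = 0.0311). Fitted by hairpin, RBL1, JADE1 and CENPE passed with sh_37 but not with sh_38 (limma adjusted p = 0.107, 0.0787 and 0.0702). The other genes named from the lists passed with each. Of the mitosis genes 15 fell with sh_37 and 4 with sh_38, against 7.19% and 3.33% of all genes. With H2AZ1 hairpins 0 genes of these 6 lists passed, and their medians lay between -0.05 and 0.02. With sh_83 alone 1 licensing control gene, 2 E2F and RB genes and 1 mitosis gene fell, against 0 genes of the MCM and origin firing lists and 0.641% of all genes in either direction. The E2F and RB genes were TFDP1 (-0.77, limma adjusted p = 0.00382) and E2F8 (-0.635, limma adjusted p = 0.0441), so the E2F8 fall was not particular to the H2AZ2 hairpins. GINS1 did not pass with sh_83 (-0.42, limma adjusted p = 0.0568), though its sh_83 arrays lay below all controls. The H2AZ2 calls rest on the controls as those of the licensing genes do. The 6 lists held 30 falls, and the count was 5 without scrambled replicate 1, 14 without luciferase replicate 2, 18 without sh_37 replicate 1 and 17 without sh_37 replicate 2. It was 1 without the scrambled hairpin, 0 without the luciferase hairpin and 12 without sh_37. Among all genes 450 fell, but 48 without scrambled replicate 1, 38 without the scrambled hairpin and 7 without the luciferase hairpin.

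**Figure D5:**
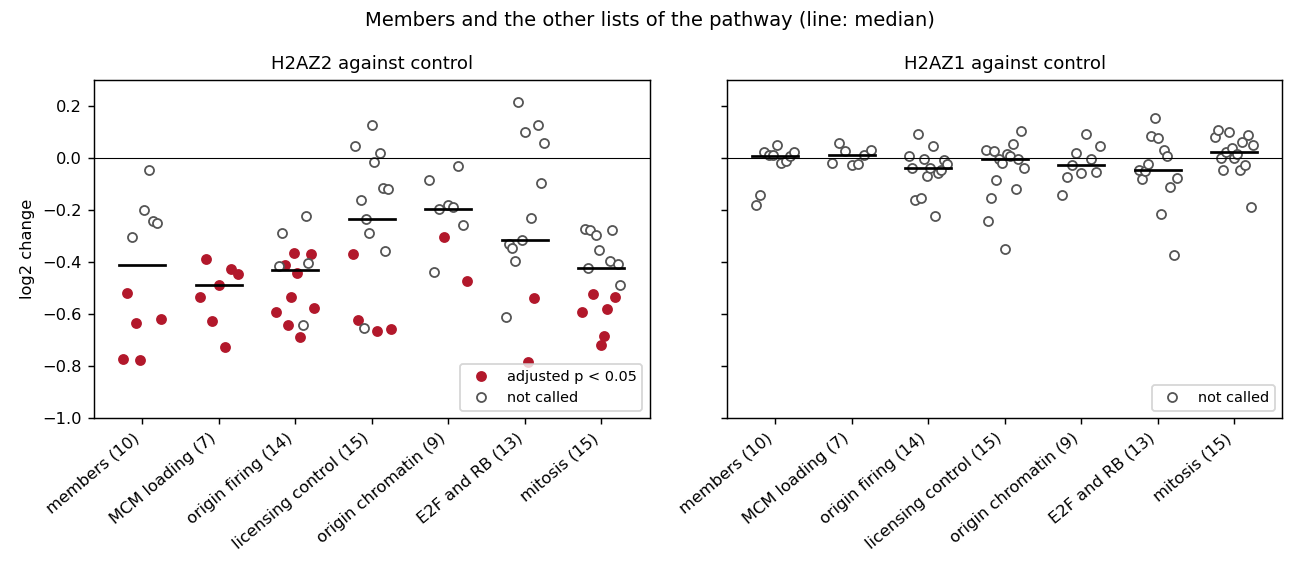
Log2 change of each gene in the 10-gene set and in 6 other lists of the pathway (number of measured genes in brackets), for H2AZ2 hairpins (left) and H2AZ1 hairpins (right) against the controls. Filled points have a limma adjusted p below 0.05, and lines are list medians. On the left the medians run from -0.49 to -0.20, and on the right all lie close to 0.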

How the data were processed

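Messenger RNA was measured on 12 arrays, and the deposited values are log2 expression per probe set, made by the authors with RMA per the submitters' processing notes. The sources used here give no software, version or filter. Array medians lay between 7.0 and 7.097, and no further normalisation was applied. Of 33297 probe sets 19460 had 1 gene symbol, and the brightest per gene gave 18417 genes. Groups came from the sample titles. limma 3.58.1 in R 4.3.3 was fitted to 3 targets with hairpin as a random block (duplicateCorrelation, correlation 0.157), with Benjamini-Hochberg adjustment over all genes and a threshold of 0.05. A fit of 6 hairpins gave the single-hairpin tests. The target fit without the hairpin block and the fit of 6 hairpins were tested on simulated data with independent noise. The main fit with hairpin as a random block was not tested in this way, and no spread between hairpins was simulated. All 10 genes are named, with 1 or 2 genes per pathway list by size of change among those called, and 5 per likeness pattern. The genes, classes, lists and tests were chosen with earlier results of these data known. The number of arrays limits the precision. Array background values and scan batches were not analysed here. Alternatives covered the block, filters, scaling, the variance model, each array and each hairpin.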

Additional observations from a re-analysis of the deposited data

Results flagged for a closer look

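The CDT1 value of luciferase replicate 1 stood apart from the other controls. It was 8.65, against 8.84 for the nearest control and 8.86 for the highest, a gap of 0.907 of their range, which is above the 95% critical value of Dixon's test for 4 arrays. It was the only such value among 30 sets of 4 arrays, and chance alone is expected to give about 5% of them. The 4 H2AZ2 arrays (8.04 to 8.47) lay below it.

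The values of 3 genes differed between the arrays with H2AZ2 hairpins and those with H2AZ1 hairpins by the direct test. The log2 difference, H2AZ2 minus H2AZ1, was -0.78 for ORC1, -0.64 for GMNN and -0.64 for ORC6. In the arrays labelled sh_84 H2AZ1 transcript stood at 92.0% of the control level, and without these arrays none of the 3 genes was called. Among all genes 93 were then called in either direction, against 802 with them.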

How the results depend on the processing

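Each of the 10 genes was recomputed in the 9 comparisons under 18 to 25 alternatives, 1910 values in all. Of the 420 that belong to a called result 0 turned sign and 65 lost the call. Of the 1490 others 100 turned sign and 15 became called, and no value that turned sign exceeded 0.227 in size. For H2AZ2 against control the count was 5, and 0 without the scrambled hairpin, 0 without the luciferase hairpin and 1 to 5 without single arrays, with 1 only without scrambled replicate 1. For H2AZ2 against H2AZ1 it was 3, and 0 without the sh_84 hairpin and 3 to 4 without single arrays. For sh_37 it was 6, and 3 to 7 without single arrays. For sh_38 it was 5, and 3 with scrambled alone as control, 3 with luciferase alone and 0 to 5 without single arrays. For H2AZ2 against control ORC1, CDT1, GMNN and ORC6 kept their calls without the sh_37 hairpin. Without the sh_38 hairpin CDC6 did so too. Leaving out a control hairpin removes as many arrays as leaving out an H2AZ2 hairpin, and why the calls were then lost was not tested. Elsewhere the count was 0 in every alternative. Deviations of same-numbered arrays correlated between -0.469 and 0.677 over 15 hairpin pairs (median 0.145, with 9 above 0.1). Since 6 pairs lay at or below 0.1, the arrays were treated as unpaired. With the replicate block 4 genes were called for H2AZ2 against control (CDC6 was not), 3 against H2AZ1, 6 for sh_37 (ORC5 was called and DBF4 was not) and 5 for sh_38, and 0 elsewhere. Among all genes the calls for H2AZ2 against control numbered 609 (159 higher, 450 lower), and 14 to 1681 over the alternatives. Normalising the arrays again by quantiles gave 193 higher and 325 lower. Against H2AZ1 the number was 802, and 93 to 1795. It was 2377 for sh_37, and 922 to 2862, and 848 for sh_38, and 148 to 1431. For sh_83 it was 118, and 6 to 284, and for the arrays labelled sh_84 65, and 1 to 176. For sh_37 against sh_38 it was 1155, and 393 to 1518, and for H2AZ1 against control 0, and up to 17 without the sh_84 hairpin.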

Other observations

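The balance of CDT1 and its inhibitor GMNN was followed per array as the difference of their log2 values relative to the control mean. It was 0.21 and -0.11 with sh_37 and -0.02 and 0.38 with sh_38, against -0.07 to 0.08 in the controls. Replicates of each H2AZ2 hairpin therefore lay on different sides of 0. With sh_83 it was -0.04 and -0.05. In the arrays labelled sh_84 it was -0.24 and -0.29, both below the controls.

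The constitutive subunits also varied between replicates of a hairpin. ORC2, ORC3 and ORC4 were each higher in replicate 1 than in replicate 2 in 5 of the 6 hairpins, by 0.13, 0.10 and 0.18 on average over the 6. ORC5 was higher in replicate 1 in 1 of the 6. The labels do not say what the replicate numbers share.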
